A study of Rattus norvegicus with 2 samples.

Results

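Adhesion and orphan G protein-coupled receptors were examined in rat C6 glioma cells before and after treatment with small molecules. The genes were chosen by name, from microarray probe sets whose single symbol in the platform annotation begins with Adgr, Gprc5, Gprc6, Gpr and a number, or Lgr and a number. This gave 96 probe sets for 95 genes, of 18166 genes with a symbol. Of the 95, 44 genes were detected, with a signal on 1 or both arrays that exceeded the signals of receptor genes of the nose (olfactory and vomeronasal), which are taken as silent in these cells. Over the whole array, 10931 genes were detected.

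The study compared 1 culture of undifferentiated C6 cells, an established glioma line kept in serum-containing medium (labelled C6), with 1 culture of the same line treated with small molecules (labelled SMiG, which the series title expands with glial cells and the sample title with C6 glioma). It asks whether treated glioma cells take on a glial state. The SMiG sample's own labels name forskolin, which activates adenylyl cyclase, rapamycin, which blocks mTORC1, and I-BET151, which blocks BET bromodomain proteins, whereas the treatment protocol given with both samples lists 20 µM of the GSK3 inhibitor CHIR99021 and 100 µM of forskolin over 35 days. No choice between these descriptions was made. Each group is 1 array, so none of the differences has a replicate error or a p-value, and fewer cells of a type cannot be told apart from less RNA per cell.

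G protein-coupled receptors cross the membrane in 7 helices and pass extracellular signals to G proteins and arrestins. Adhesion receptors carry long extracellular regions that bind proteins on neighbouring cells or in the matrix, and most cut themselves at a site next to the membrane, so that the freed end of the receptor can act as its own agonist. Orphan receptors are those with no settled ligand, several are prominent in glia, and the Lgr receptors bind R-spondins and raise Wnt signalling. Some genes that carry a Gpr symbol encode proteins of the Golgi or lysosome that are not classical receptors of the cell surface.

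Signals are given as log2 expression as deposited, and a difference is SMiG minus C6 on the log2 scale, where 1 is a 2-fold difference. The detection level was 4.84 for C6 and 4.96 for SMiG, the 95th percentile of the receptor genes taken as silent. These silent genes, 1342 in all, differed between the arrays with an SD of 0.32, and the central 95% of their differences ran from −0.55 to 0.72, which is the only measure of spread available here. It covers technical spread at signals mostly below the detection level. The spread of brighter genes may differ, and that between cultures is not covered. Levels of different genes come from different probes and are not set against each other.

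Among the 44 receptor genes detected, 5 had a signal at least 2-fold higher in SMiG, against 3.19% of all detected genes, and 4 were at least 2-fold lower, against 6.51%. The 5 were Gpr37l1, Gpr155, Gpr137c, Gpr37 and Adgrl3. The 4 were Gpr176, Gprc5a, Adgre5 and Gprc5b. The remaining 35 lay between −0.69 for Gpr19 and 0.89 for Lgr5. Of the 44, 34 were above the detection level on both arrays, 3 on C6 only and 7 on SMiG only. A gene detected on 1 array alone tends to differ by construction, so these counts describe the genes and support nothing further. With values below the detection level raised to it, 4 genes were at least 2-fold higher, against 3.06% of all detected genes, and 4 at least 2-fold lower, against 5.75%. Among the 34 detected on both arrays, 3 were at least 2-fold higher, against 3.20% of all such genes, and 2 at least 2-fold lower, against 5.34%. The median difference of the 44 was 0.08, against −0.0052 for all detected genes, and 25 of the 44 (56.8%) had a positive difference, against 48.9%. The median size of the difference, without its sign, was 0.31 for the family and 0.32 for all detected genes.

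**Figure D1:**
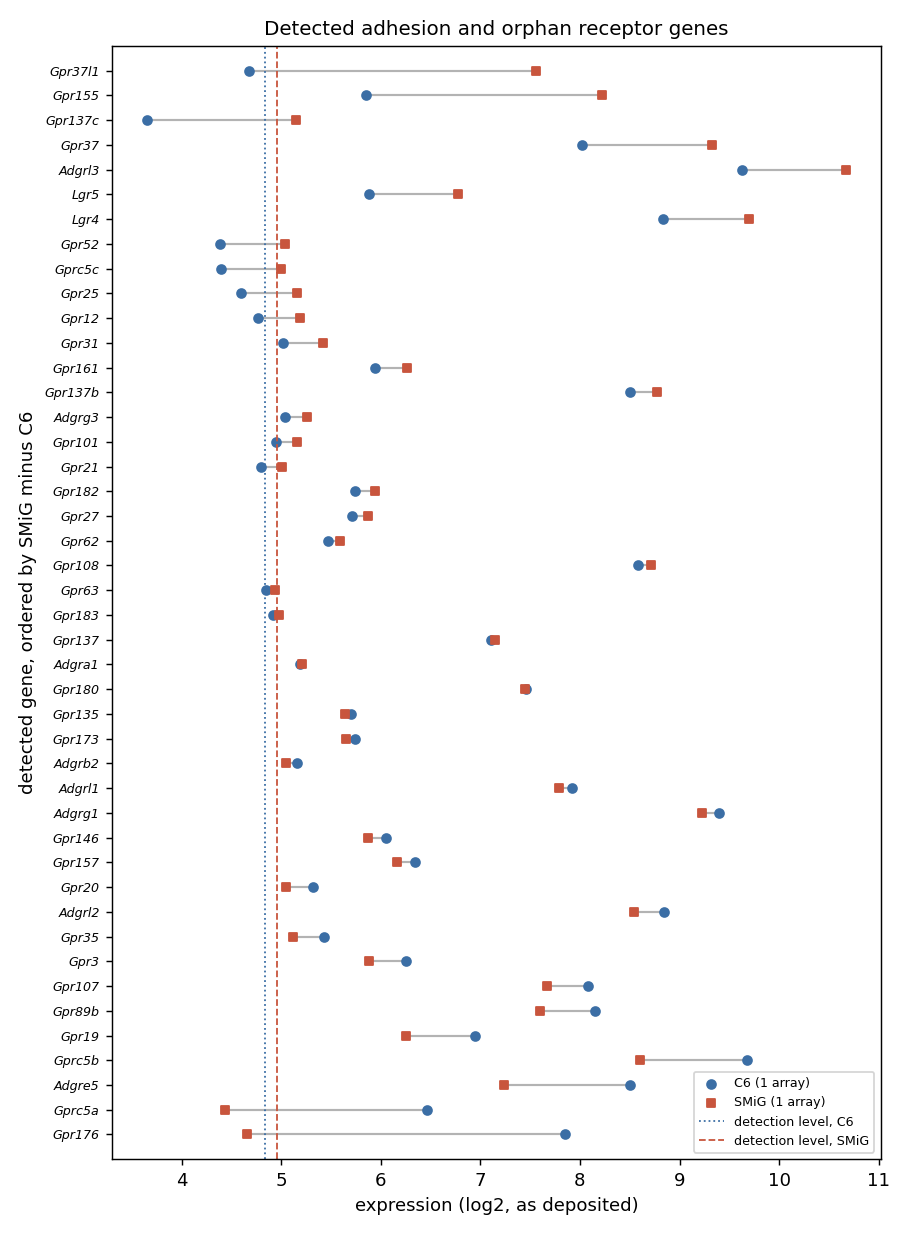
Signal of the 44 detected genes on the C6 array (circles) and the SMiG array (squares), on the log2 scale as deposited, ordered by the difference; vertical lines are the detection levels of the arrays, and there is 1 array per group and no error bar. The long bars at the top (Gpr37l1, Gpr155) and bottom (Gpr176, Gprc5a) are the 4 genes past 4-fold in measured values, and most other pairs of points lie close together.

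The glial receptor genes Gpr37l1 and Gpr37 were both higher in SMiG. They encode related receptors, reported to respond to prosaposin, of which Gpr37l1 is known from astrocytes and Gpr37 from oligodendrocytes. Gpr37l1 stood at 4.68 in C6, below the detection level, and at 7.56 in SMiG. This is at least a 6.59-fold difference when C6 is set at its detection level. Gpr37 stood at 8.02 in C6 and 9.32 in SMiG, both well above the level, a difference of 1.30 or 2.47-fold. Among the 10056 genes above the level on both arrays, Gpr37 had rank 130 from the highest difference. Psap, which encodes prosaposin, differed by 0.51, from 10.84 to 11.35, short of 2-fold. Its relative Psapl1, named after its value was seen, was above the level in C6 only, at 4.88 against 4.56 in SMiG.

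The sequences just upstream of the genes with the largest differences at either end, with Gpr37 beside its relative Gpr37l1, were compared in their CpG content. The windows of Gpr37, Gpr155 and Gpr176 are rich in it, whereas that of Gpr37l1 lies between the quartiles of all windows, given below. Each sequence is the 250 bases before the RefSeq transcription start, in the GRCr8 build, written 5′ to 3′ on the strand of the gene, with CpG dinucleotides in capitals. The window of Gpr37l1 (chr13:49157205-49157454, minus strand) holds 3 CpG and is 58.8% G and C. That of Gpr37 (chr4:55126421-55126670, minus strand) holds 16, that of Gpr155 (chr3:78677804-78678053, minus strand) 18 and that of Gpr176 (chr3:125791173-125791422, minus strand) 20.
Gpr37l1: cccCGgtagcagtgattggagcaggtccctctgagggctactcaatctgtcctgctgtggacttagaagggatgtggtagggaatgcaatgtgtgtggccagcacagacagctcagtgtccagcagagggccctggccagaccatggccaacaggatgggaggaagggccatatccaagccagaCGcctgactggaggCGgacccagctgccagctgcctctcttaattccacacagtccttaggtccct
Gpr37: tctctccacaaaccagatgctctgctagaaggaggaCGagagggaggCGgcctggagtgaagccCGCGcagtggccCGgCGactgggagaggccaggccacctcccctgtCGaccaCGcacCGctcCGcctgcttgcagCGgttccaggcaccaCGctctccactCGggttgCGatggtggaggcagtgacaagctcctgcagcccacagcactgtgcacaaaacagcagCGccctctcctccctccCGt
Gpr155: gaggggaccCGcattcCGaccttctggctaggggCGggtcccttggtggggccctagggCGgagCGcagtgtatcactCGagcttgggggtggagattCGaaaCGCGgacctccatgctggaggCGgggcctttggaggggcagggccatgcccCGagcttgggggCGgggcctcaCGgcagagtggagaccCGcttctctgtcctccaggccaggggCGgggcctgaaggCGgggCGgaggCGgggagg
Gpr176: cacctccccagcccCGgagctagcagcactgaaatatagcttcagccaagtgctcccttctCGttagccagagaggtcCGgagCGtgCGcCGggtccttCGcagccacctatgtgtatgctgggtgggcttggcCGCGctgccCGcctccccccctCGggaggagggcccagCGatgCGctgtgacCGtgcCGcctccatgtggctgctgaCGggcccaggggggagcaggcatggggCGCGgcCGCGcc

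Of the 9 genes past 2-fold, 7 had a sequence in the RefSeq table, and Adgrl3 and Gprc5a had none. Apart from Gpr37l1, the windows held between 16 CpG (Gpr37) and 30 (Gpr137c), with 22 each in Adgre5 and Gprc5b. Over all 33469 windows of that length the median was 5, and the quartiles were 2 and 15. These windows include genes not detected here, and CpG in detected genes alone was not summarised. Both directions of difference thus occur among CpG-rich windows, and Gpr37l1 was the only one of the 7 between those quartiles.

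Because both descriptions of the treatment name forskolin, which raises cyclic AMP, the windows were searched on both strands for the cyclic AMP response element TGACGTCA and its core TGACG, which the full element contains on either strand. The full element was in none of the 35 detected genes with a sequence, and in 1.59% of all windows. The core was in 9 of the 35, and in 18.2% of all windows, which include those of genes not detected here. Of the 7 genes past 2-fold, Gpr176 alone held it, 42 to 38 bases before the start (ctgaCGg in the sequence above). The E-box CACGTG, in 5.59% of all windows, and the ATF4 element TGATGNAA, in 3.40%, were in none of the 35. A match describes letters in this window and is not a binding site, and the absence of one says nothing about the factor.

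**Figure D2:**
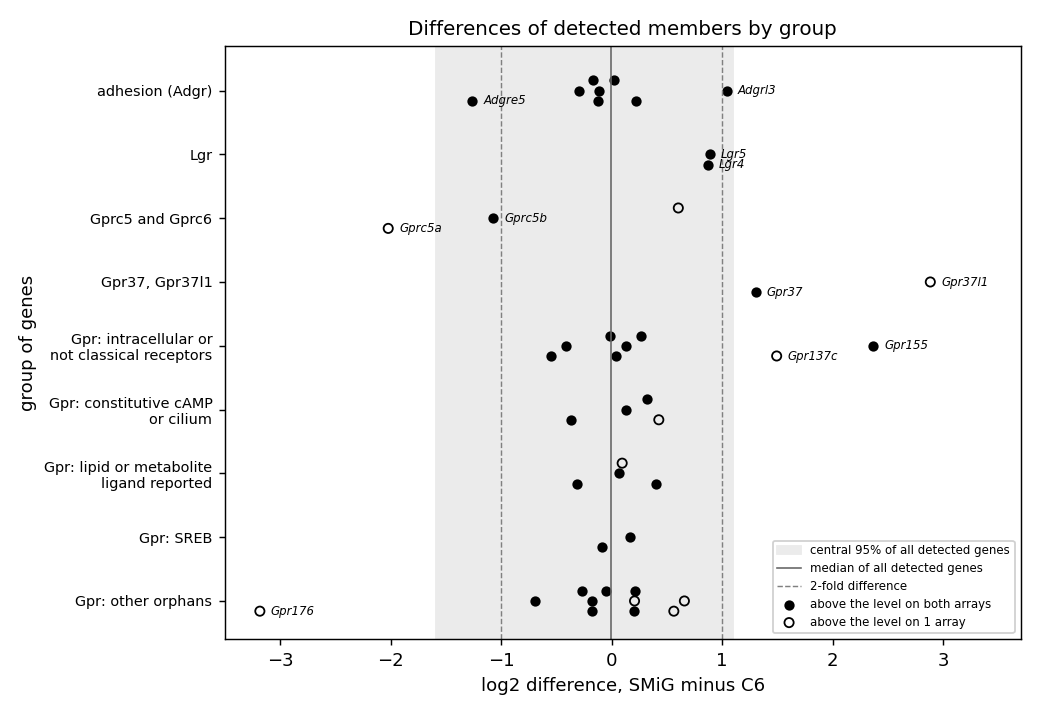
Log2 difference (SMiG minus C6) of each of the 44 detected genes, by group; filled circles are genes above the detection level on both arrays and open circles on 1 array, the grey band is the central 95% of all detected genes (−1.59 to 1.10) and dashed lines mark 2-fold. Gpr37l1, Gpr155, Gpr137c and Gpr37 lie above the band and Gpr176 and Gprc5a below it.

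Of 9 genes with a Gpr symbol whose products are not classical receptors of the cell surface, 8 were detected, and 2 were at least 2-fold higher in SMiG in measured values, against 3.19% of all detected genes. With values below the detection level raised to it, 1 of the 8 was, Gpr155, against 3.06%. Gpr155 encodes a membrane protein of the lysosome that senses cholesterol and acts on mTORC1. It stood at 5.85 in C6 and 8.22 in SMiG, a difference of 2.37 or 5.16-fold, with both values above the detection level. Its rank was 16 among the 10056 genes above the level on both arrays. Gpr137c, a member of the lysosomal GPR137 family, measured 3.66 in C6 and 5.15 in SMiG, a measured difference of 1.49. The C6 value lay below the detection level and the SMiG value only just above it, so the bound is at least 1.24-fold and the gene is not supported as 2-fold higher.

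The relatives of Gpr137c gave small differences. Gpr137b stood at 8.50 in C6 and 8.77 in SMiG, a difference of 0.27, and Gpr137 at 7.10 and 7.14. Several of the remaining members of this group are found in the Golgi and other inner membranes. Gpr89b, encoding a Golgi anion channel that sets luminal pH, was at −0.55, from 8.15 to 7.60. Gpr107 and Gpr108, related Golgi proteins, were at −0.41 and 0.12. Gpr180 was at −0.013. Gpr143, the melanosome receptor of ocular albinism, was below the detection level on both arrays.

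Among adhesion receptors, the latrophilin gene Adgrl3 was higher in SMiG and Adgre5 was lower. Of 20 adhesion receptor genes with an Adgr symbol, 8 were detected, 3 of them with a positive and 5 with a negative difference, and the median was −0.12. Adgrl3 encodes latrophilin-3, which binds teneurins and FLRT proteins at synapses. It stood at 9.63 in C6 and 10.67 in SMiG, a difference of 1.04 or 2.06-fold, just past the threshold. The other latrophilin genes did not share this difference: Adgrl1 was at −0.13, from 7.92 to 7.79, Adgrl2 at −0.30, from 8.84 to 8.54, and Adgrl4, known from endothelium, was below the detection level on both arrays. Adgre5 encodes CD97, a receptor of leukocytes and of many tumours that binds CD55. It stood at 8.50 in C6 and 7.24 in SMiG, a difference of −1.26, or 2.40-fold lower. Its nearest protein-coding neighbour in the RefSeq gene order of the GRCr8 assembly is Adgrl1, which lay near 0.

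Adgrg1, encoding GPR56, a receptor for collagen III that acts in cortical development and in oligodendrocyte precursors, was at 9.39 in C6 and 9.23 in SMiG, a difference of −0.17. Adgrg3, its immediate neighbour on the chromosome, was close to the detection level on both arrays, at 5.04 and 5.26. Adgrb2, a relative of brain angiogenesis inhibitor 1, was at 5.16 and 5.04, and Adgra1 at 5.19 and 5.21. Each of these 4 differences lay inside the central 95% of the silent genes. The other 12 adhesion genes were below the level on both arrays: Adgrb1, Adgrb3, Adgrd1, Adgre1, Adgre4, Adgrf2, Adgrf4, Adgrf5, Adgrg2, Adgrg7, Adgrl4 and Adgrv1. Adgrb1 came nearest to it, at 4.92 in SMiG.

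Ligands and partners of adhesion receptors included genes with larger differences than any detected adhesion receptor gene. Of 31 genes in this list, 27 had a probe set and 18 were detected. The list also holds the Celsr genes, which are adhesion receptors whose symbols fall outside the name rule. Those with a probe set, Celsr2 and Celsr3, named after their values were seen, were below the level on both arrays. At least 2-fold higher in SMiG were 5, against 3.19% of all detected genes, and at least 2-fold lower were 2, against 6.51%, with a median of 0.10. Flrt3, encoding a ligand of latrophilins, stood at 5.31 in C6 and 7.46 in SMiG, a 4.43-fold difference. Tenm2, encoding a teneurin, was lower, at 6.18 in C6 and below the level at 4.30 in SMiG, at least 2.33-fold. Tenm3, another teneurin gene, stood at 9.65 in C6 and 9.29 in SMiG, within 2-fold. Cd55, encoding the complement regulator that CD97 binds, stood at 7.52 in C6 and, at 4.88 in SMiG, below the level. It was at least 5.89-fold lower, so both the receptor gene Adgre5 and its ligand gene had lower values in SMiG.

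The other 4 members of the list past 2-fold were higher. C1ql1, encoding a ligand of the BAI receptors, was at 5.81 in C6 and 7.10 in SMiG. Reck, encoding the partner of the adhesion receptor GPR124 in Wnt7 signalling, was at 8.94 and 10.17. Prnp, encoding the prion protein, a ligand of ADGRG6, was at 9.56 and 10.79. Lamc1, a laminin subunit gene, was at 10.09 and 11.21. Among the brightest of the rest, Tenm3 was at −0.37, Col4a2 at 0.80, Lama2 at −0.34 and Col4a1 at 0.20. Named after their values were seen, Col3a1 and Tgm2, encoding ligands of GPR56, were at 0.15 and −0.66. Probe sets for the receptors ADGRG6 and GPR124 themselves were not analysed here.

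**Figure D3:**
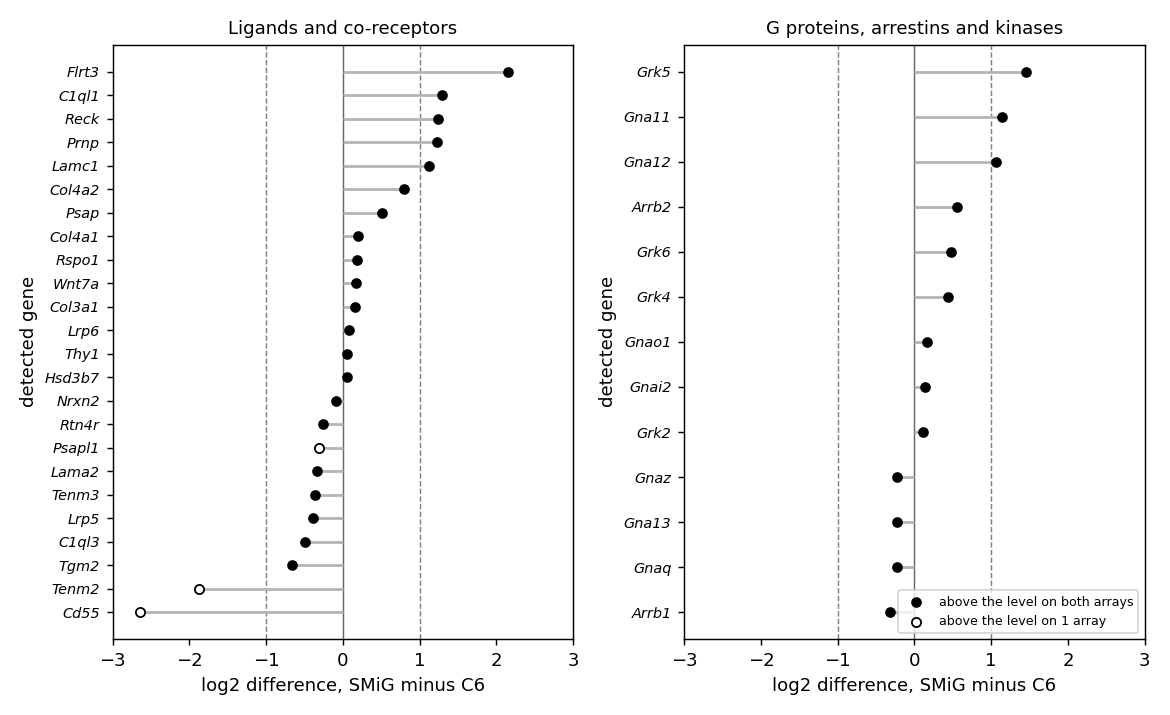
Log2 difference (SMiG minus C6) of detected ligand, co-receptor and oxysterol enzyme genes (left) and of G protein, arrestin and receptor kinase genes (right); filled points were above the detection level on both arrays, open points on C6 only, and dashed lines mark 2-fold. Flrt3 is highest at 2.15 and Cd55 lowest at −2.64 on the left, and Grk5, Gna11 and Gna12 exceed 2-fold on the right.

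The R-spondin receptor genes Lgr4 and Lgr5 had similar positive differences, both short of 2-fold. Lgr4 stood at 8.83 in C6 and 9.70 in SMiG, a difference of 0.87 or 1.82-fold. Lgr5, a marker of Wnt-dependent stem cells, stood at 5.89 in C6 and 6.78 in SMiG, a difference of 0.89 or 1.85-fold. Both lay above the central 95% of the silent genes and inside that of all detected genes. Lgr6 was below the detection level on both arrays. Of the ligand genes, Rspo1 was close to the level at 5.38 and 5.57, and Rspo2, Rspo3 and Rspo4, named after their values were seen, were below it on both arrays. The co-receptor genes Lrp5 and Lrp6 were at −0.38 and 0.08, and the gene of the R-spondin-bound ligase Rnf43, named likewise, was below the level. None of the 5 detected members of this list of prosaposin and R-spondin genes passed 2-fold. Of all detected genes, 3.19% were at least 2-fold higher and 6.51% lower, so a list this short says little.

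The Gprc5 genes, whose products are class C receptors induced by retinoic acid, were at least 2-fold lower in 2 of 3 detected members, against 6.51% of all detected genes, and 1 of the 2, Gprc5a, was detected through C6 alone. Gprc5a stood at 6.46 in C6 and at 4.44 in SMiG, below the detection level, at least 2.83-fold lower. Gprc5b, known from brain, stood at 9.67 in C6 and 8.60 in SMiG, a difference of −1.07, or 2.10-fold lower. Gprc5c was below the level in C6 at 4.40 and 0.041 above it in SMiG. Gprc5d, which lies next to Gprc5a in the RefSeq gene order, and Gprc6a, encoding a receptor for basic amino acids, were below the level on both arrays.

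The lowest measured difference of any detected member was that of Gpr176, an orphan receptor gene known from the clock neurons of the suprachiasmatic nucleus, where its product lowers cyclic AMP through the G protein Gz. It stood at 7.85 in C6 and at 4.66 in SMiG, below the detection level, at least 7.39-fold lower. Gnaz, which encodes the alpha subunit of Gz and was picked once its value was known, was at 5.88 in C6 and 5.66 in SMiG. Gpr19, another orphan, stood at 6.94 and 6.25, a difference of −0.69 that lay below the central 95% of the silent genes and short of 2-fold.

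The other members of the orphan group gave small differences or signals near the detection level. Gpr157, a receptor of the primary cilium, was at −0.18, Gpr146 at −0.18, Gpr135 at −0.05, Gpr182 at 0.20 and Gpr20 at −0.27, all above the level on both arrays, as was Gpr101 at 0.21. Gpr21, Gpr25 and Gpr52 were above it in SMiG only, with SMiG values from 5.01 to 5.16, so that their differences of 0.21, 0.56 and 0.66 are bounded at 1.12-fold, 1.25-fold and 1.15-fold. Of 29 genes in this group, 11 were detected.

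Receptors that raise cyclic AMP without a ligand, and that act at the cilium, were not past 2-fold. Of all detected genes, 3.19% were at least 2-fold higher and 6.51% lower. Gpr3 was at 6.25 in C6 and 5.88 in SMiG, a difference of −0.37. Gpr161, a brake on Hedgehog signalling in the primary cilium, was at 5.94 and 6.26, a difference of 0.32. Gpr62 was at 0.13, and Gpr12 was above the level in SMiG only, at 5.19 against 4.77 in C6. Of the brain receptors named SREB, Gpr27 was at 0.17 and Gpr173 at −0.09, and Gpr85 was below the level.

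Receptors with a reported lipid or metabolite ligand were mostly not detected, with 4 of 12 above the level, all by less than 1. Gpr183, the oxysterol receptor of immune cell migration, was at 4.92 and 4.98. Gpr35 was at 5.43 and 5.12, Gpr31 at 5.02 and 5.42, and Gpr63 at 4.85 and 4.94. Of the oxysterol enzyme genes Ch25h, Cyp7b1 and Hsd3b7, Hsd3b7 alone was detected, at 6.52 and 6.56. The proton sensors Gpr4, Gpr65 and Gpr132, the zinc receptor gene Gpr39, the class C-like genes Gpr158 and Gpr179, and Gpr17, which marks maturing oligodendrocyte precursors, were below the level on both arrays. The microglial genes Gpr34, at 2.85 and 2.90, and Adgre1, at 4.18 and 4.25, were below it as well.

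**Figure D4:**
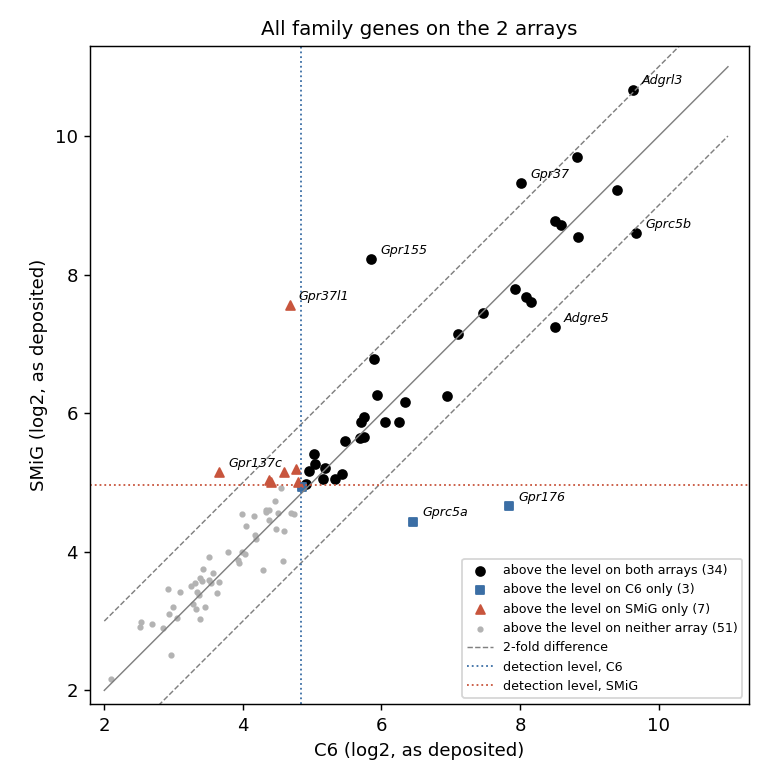
Signal on the C6 array against signal on the SMiG array for all 95 genes, log2 scale as deposited; the solid line marks equality, dashed lines 2-fold and dotted lines the detection levels. The 51 genes below both levels sit at the lower left near the diagonal, and the 9 named genes lie on or past the dashed lines.

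Detection itself was uncertain for many members. Of the 44, 14 exceeded the level by less than 0.5 and 24 by more than 1. Just inside it were Gpr63, Gprc5c and Gpr21, by 0.0071, 0.041 and 0.045, and just outside were Adgrb1 and Gpr17, short of it by less than 0.1 each, and Gpr55. Of the silent genes, 79 of 1342 were themselves above the level. The differences of the 51 genes below the level ran from −0.72 (Adgrg2) to 0.55 (Gpr18), none past 2-fold. The symbols Gpr33-ps1, a pseudogene, and Gpr15lg, which encodes a ligand of GPR15, match the name rule without being receptors, and both were below the level. Gpr174 was the only gene with several probe sets, and they disagreed: 1 gave 5.64 and 5.55, the other 2.32 and 2.45. Their mean was below the level, whereas read by single probe sets the brighter 1 was above it.

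Genes of the G proteins, arrestins and kinases that act next to these receptors were detected in 13 of 18 cases, with 3 at least 2-fold higher, against 3.19% of all detected genes, none at least 2-fold lower, against 6.51%, and a median of 0.17. Grk5, encoding a receptor kinase, stood at 6.60 in C6 and 8.05 in SMiG, a 2.73-fold difference. Gna11 and Gna12, encoding alpha subunits of the Gq and G12 families, were at 1.14 and 1.06. Of the brightest others, Gnai2 was at 0.14, Gnao1 at 0.17, Gnaq at −0.23 and Arrb1 at −0.31. Gnas, encoding the alpha subunit of Gs and named after its value was seen, was listed below the detection level on both arrays in the mean of 2 probe sets, at 4.16 and 4.19, and is not interpreted.

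Markers of the labelled cell type and of other cell types give the setting of these values. Of 7 measured C6 or astrocyte markers, 4 were detected. S100b alone was at least 2-fold higher, against 3.19% of all detected genes, and none was lower, against 6.51%. Vim was at 12.74 on both arrays, Nes at 8.74 in C6 and 8.59 in SMiG, and S100b at 9.67 and 10.87. Gfap was at 6.05 and 5.48, and the astrocyte genes Aqp4, Slc1a2 and Slc1a3 were below the detection level. This list's summed linear signal was 8199 in C6 and 9224 in SMiG, and 7382 and 7346 without S100b. Of 7 measured oligodendrocyte markers, all were detected and 2 were at least 2-fold higher, Cnp at 1.52 and Sox10 at 1.01, against 3.19% of all detected genes. The other 5 were within 2-fold: Olig1 at −0.20, Olig2 at 0.35, and Mbp, Mag and Mog, which were above the level in SMiG only, at values from 4.96 to 5.17. Mog at 4.9635 and Mbp at 4.9957 lay barely above the SMiG level of 4.9613, so their detection is uncertain. The oligodendrocyte list's summed linear signal, which its brightest probe sets lead, was 1396 in C6 and 3045 in SMiG. Without Cnp and Sox10 it was 235 and 253, so those 2 genes carry the difference of the sum. They were left out because they were past 2-fold, so a smaller difference in the rest follows from that choice. Cnp and Sox10 were higher beside Gpr37 and Gpr37l1, and their part in those differences was not tested. Of 8 microglial markers, 2 were detected, Trem2 and P2ry12, none past 2-fold, with a summed linear signal of 160 in C6 and 178 in SMiG. Ptprc, Csf1r, Aif1, Itgam, Cx3cr1 and Tyrobp were below the level. Of 4 measured endothelial markers 2 were detected and of 4 neuronal markers 2. None of these or of the microglial markers was past 2-fold, against 3.19% of all detected genes higher and 6.51% lower. Summed linear signals were 128 and 107 for endothelium and 121 and 131 for neurons in C6 and SMiG.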

How the data were processed

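RNA from 1 C6 and 1 SMiG culture was hybridised to Affymetrix whole-transcript arrays, per the labels' protocols. The deposited table gives 1 value per probe set, which is read here as log2 expression. Scaling by the authors across both arrays is assumed. The log base was read from the values, which reach 13.09, above 11.09, the natural log of a 16-bit scanner's maximum. How the authors corrected background, normalized and summarised probes, not given in the sources used here, could change any fold. The column medians were 4.84 and 4.86, and no further normalization was applied.

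Genes were named from probe sets with 1 symbol in the platform annotation (18511 of 36685), and probe sets of a gene were averaged. All 95 family genes matched RefSeq (GRCr8) by gene number with the same symbol. RefSeq supplied the sequences of 73 of them. The detection level was the 95th percentile of 1342 olfactory and vomeronasal receptor genes. A fold with the dimmer array below that level uses the level itself and is written as at least that fold. Every detected member may be named, and from each partner list the members past 2-fold and up to 4 others with the brightest mean signal. Genes of the partner lists outside this rule are said to have been named after their values were seen. Cell type markers were not held to this rule and were named with their values known. Members and lists were chosen with earlier results of these data known. The procedure was tested on simulated data, with noise at the spread of the silent genes. Differences clearly past 2-fold were planted in genes well above the detection level. Recovery near that level, or just past 2-fold, was not tested. Values were computed in Python 3.11.15 with pandas 2.3.3 and numpy 2.4.6, lowess came from statsmodels 0.14.6 and plots from matplotlib 3.10.9. The alternatives were other detection levels, other scalings, other handling of probe sets and other fold thresholds.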

Additional observations from a re-analysis of the deposited data

How the results depend on the processing

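The identity of the genes past 2-fold was stable under the alternatives that kept that threshold, with 1 exception. Gpr176, Gprc5a, Adgre5 and Gprc5b were counted as lower, and Gpr37l1, Gpr155, Gpr37 and Adgrl3 as higher, under each of the 9. Gpr137c was not counted with a detection level at percentile 99 of the silent genes, where it was undetected, or with values below the level raised to it, where it stood at 0.31. That percentile left 24 detected members and turned their median to −0.15, and with no detection level all 95 were included. Olfactory genes alone as silent left 40. At 1.5-fold, 9 were higher, against 10.43% of all detected genes, and 5 lower, against 15.09%. At 4-fold, 2 were higher, against 0.37%, and 2 lower, against 1.30%. Many of the alternatives could not move the difference of a gene. Each detected member has 1 probe set, so other handling of probe sets leaves its difference unchanged. A changed or absent detection level does so too, unless values are raised to it. Centring on the median shifts all genes by the same amount. The counts that follow are thus partly fixed in advance. Of 370 values of single genes under the alternatives, 366 moved by less than the SD of the silent genes, 4 moved by more and none past 2-fold changed sign. The other 3 of the 4 were Gprc5a at −1.499, Gpr52 at 0.20 and Gprc5c at 0.16, all with values below the level raised to it. Under the 3 scalings the sign changed for 4 members near 0, Gpr173, Gpr135, Gpr180 and Adgra1. No paired analysis was possible because there is 1 array per group. Precision is limited by the number of arrays, and signals near the detection level limit what can be said of the dimmest members.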

Other observations

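Gpr143, Gpr65, Gpr142 and Gpr33-ps1 had exactly equal values on both arrays. Over all genes with a symbol, 463 of 18166 had exactly equal values, 83 of them above the detection level.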
